A study of Mus musculus with 18 samples.

Results

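The comparison described here asks whether the transcriptional response of dendritic cells to bacterial lipopolysaccharide (LPS) depends on the presence of interleukin-10 (IL-10) and transforming growth factor beta (TGF-β). For each gene, the LPS response in the presence of both cytokines was set against the LPS response in their absence, and the difference between these 2 responses is called the interaction. It uses 12 of the 18 libraries of the series, 3 in each of 4 wild-type groups: LPS + IL-10 + TGF-β, IL-10 + TGF-β, LPS, and medium. The other libraries, labelled Bat3cKO (Bat3 knockout) with LPS or medium, entered the fit but not the comparison. All 12 libraries came from C57BL/6 bone marrow cells differentiated with 20 ng/ml of the growth factor GM-CSF, re-plated at day 9, treated for 8 hours and sorted as live CD11c-high cells. The 4 groups are called LPS + cytokines, cytokines alone, LPS alone and medium below. Doses of LPS, IL-10 and TGF-β, and the order in which they were added, are not given in the sources used here. Cytokines alone and medium are therefore parallel groups, and not levels measured before LPS. The treatment notes mention 5 biological replicates, against 3 libraries per group, and it is not stated which mice or cultures gave them, so p-values cover the spread among these libraries, which may be technical. Of 23420 genes listed, 11876 passed a filter on low counts and were tested.

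LPS is sensed by the receptor TLR4, which signals through NF-kB and MAP kinases to inflammatory cytokine genes, and through interferon regulatory factors to type I interferon. Secreted interferon then acts back on the cells through its receptor and induces antiviral genes. IL-10 signals through STAT3 and is known as an inhibitor of cytokine and costimulatory gene expression in macrophages and dendritic cells. TGF-β signals through SMAD proteins, and together these cytokines are used in culture to make dendritic cells that are poor activators of T cells.

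Total counts ranged from 8940446 to 12068759 in the 12 libraries. The transcript of the sorted marker CD11c, Itgax, averaged 100 TPM with LPS + cytokines, 158 TPM with cytokines alone, 240.2 TPM with LPS alone and 403 TPM in medium (TPM are scaled for gene length and library size). Flt3, a receptor of dendritic cell precursors, averaged between 0.03 and 0.13 TPM in the groups. Summed over 13 dendritic cell markers, the level was 1479 to 1989 TPM with LPS + cytokines, 1884 to 2597 TPM with cytokines alone, 8410 to 9282 TPM with LPS alone and 5856 to 13273 TPM in medium. Summed over 15 neutrophil and granulocyte markers it was 17309 to 21462 TPM with LPS + cytokines, 23675 to 36059 TPM with cytokines alone, 4975 to 12111 TPM with LPS alone and 2554 to 4918 TPM in medium. S100a8, S100a9 and Lcn2 made up most of this sum in every group. Lcn2 averaged 5558, 1197, 2800 and 174 TPM in the same order, so it also rose with LPS. Retnlg, at 3.56, 15.1, 23.8 and 28.2 TPM, and Mmp9, at 14.3, 32.2, 34.2 and 32.7 TPM, did not follow the sum. These marker sums differ most between the libraries with and without cytokines. In bulk RNA, more cells of a type and more RNA per cell cannot be told apart, and the part of cell composition in the results below was not tested. Lymphocyte markers summed to at most 4.96 TPM in any library.

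A pair of libraries stood apart from their groups in genes of mature dendritic cells. Replicate 1 of cytokines alone was high: Ccr7, the chemokine receptor that guides dendritic cells to lymph nodes, had 52.3, 33.1 and 17.7 CPM in the libraries with LPS + cytokines, 85.3, 7.19 and 2.06 CPM with cytokines alone, 1256, 1072 and 1127 CPM with LPS alone and 212, 216 and 17.2 CPM in medium. Replicate 3 of medium was low in the same gene, so in both groups a single library set the spread. Results that rest on these libraries are given below with and without them. The choice to leave out both was made after their values were seen. With both left out, 1907 genes were called for the interaction in place of 2487, and 1749 genes were called either way, which is 70.3% of the genes called with all libraries and 91.7% of those called without these.

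The LPS response depended on the cytokines at 2487 genes, 20.9% of those tested (edgeR quasi-likelihood F-test, Benjamini-Hochberg adjusted p below 0.05). The interaction was lower than 0 at 1432 genes (12.1%) and higher than 0 at 1055 genes (8.88%), meaning that LPS moved the gene less far up, or further down, in the cytokine-treated cells in the first case, and the reverse in the second. Beyond 2-fold, 736 of the called genes were lower and 391 were higher. This split depends on the scaling: with upper-quartile scaling 1166 genes were lower and 1466 higher, and on log2(TPM + 1) values 1145 were lower and 1465 higher. Those settings moved the median interaction of all genes to 0.11 and 0.10 on the log2 scale, against 0.00 here. Of the 1432 lower genes, 97.1% also had a negative difference of differences on the linear scale of CPM (counts scaled to library size, as in all values given in CPM), and of the 1055 higher genes 98.2% had a positive one.

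The LPS responses themselves share no library and differed in width. In the presence of the cytokines, LPS changed 5575 genes (46.9%), 2836 upward (23.9%) and 2739 downward (23.1%). In their absence it changed 6969 genes (58.7%), 3537 upward (29.8%) and 3432 downward (28.9%). The standard deviation of the log2 LPS response over all tested genes was 0.82 with cytokines and 1.27 without. The responses were correlated across genes (Pearson r = 0.60, Spearman rho = 0.66 over 11876 genes, which are not independent replicates), with a first principal axis of slope 0.50 for the response with cytokines over that without. Of the genes that LPS alone raised, 2029 also rose in the presence of cytokines, 1389 passed the test in neither direction there, and 119 fell. Of the genes that LPS alone lowered, 2063 also fell with cytokines, 1291 did not pass the test, and 78 rose.

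**Figure D1:**
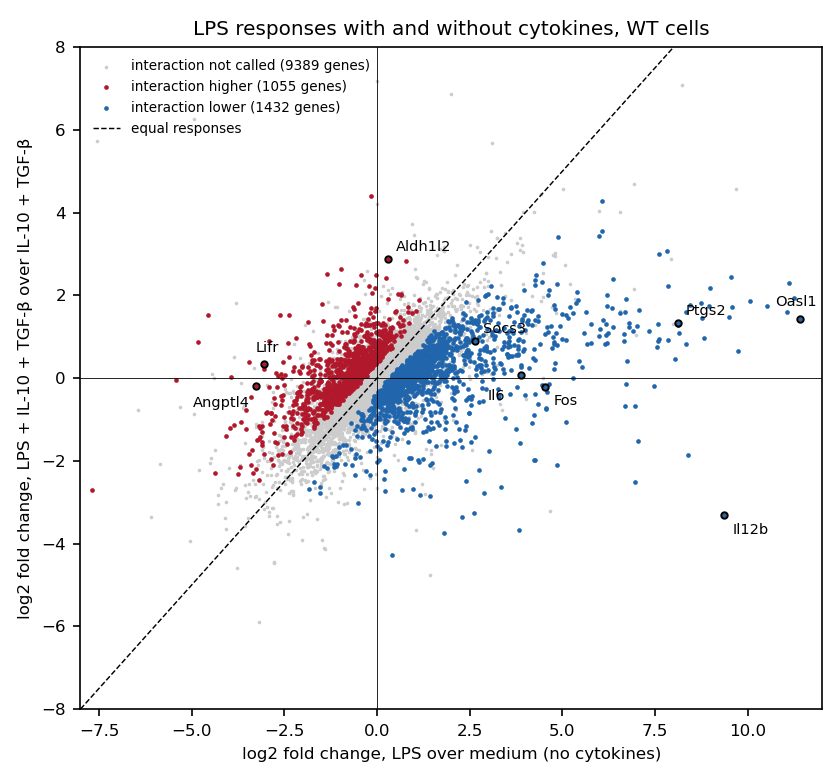
Each point is a tested gene, with the log2 LPS response without cytokines (LPS alone over medium) on the x axis and the log2 LPS response with cytokines (LPS + cytokines over cytokines alone) on the y axis. The 1432 genes with a lower interaction lie below the dashed line of equal responses and the 1055 with a higher interaction above it, and the cloud spreads further along x (SD 1.27) than along y (SD 0.82).

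Antiviral genes induced by interferon were 7 of the 10 genes with the most negative interaction among called genes that averaged 2 or more in log2 CPM. Of 33 type I interferon-stimulated genes listed, 32 were tested, and all 32 had a lower interaction, against 12.1% of all genes. Their median interaction was -4.34 on the log2 scale, against 0.00 for all genes. Their median LPS response was 1.32 with cytokines and 5.65 without. LPS raised 31 of the 32 genes with cytokines and all 32 without, against 23.9% and 29.8% of all genes. So LPS still raised nearly all of these genes in cytokine-treated cells, over a narrower range. With the pair of libraries that stood apart left out, all 32 were still lower and the median was -3.87.

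The narrower range was seen at both of its ends. The summed level of the 33 genes was 6448, 5516 and 7511 TPM in the 3 libraries with LPS + cytokines, 3409, 2845 and 2624 TPM with cytokines alone, 12770, 14316 and 12773 TPM with LPS alone and 486, 462 and 436 TPM in medium. No library overlapped another group, and cytokines alone stood well above medium. In log2 terms the median level of the list with cytokines minus without was -0.73 in the presence of LPS and 3.20 in its absence. A higher level with cytokines alone than in medium was therefore the larger of the 2 contributions to the interaction at the median gene of the list. These 2 differences are given as descriptions, since they share libraries with the interaction.

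Rsad2, which encodes the antiviral enzyme viperin (chromosome 12, 26442743 to 26456452, RefSeq GRCm38.p6), shows the pattern. It had 384, 214 and 539 CPM in the libraries with LPS + cytokines, 225, 86.2 and 66.02 CPM with cytokines alone, 2042, 3474 and 2574 CPM with LPS alone and 1.02, 1.97 and 0.757 CPM in medium. Every LPS-alone library was above, and every medium library below, all libraries with cytokines, while the ranges with LPS + cytokines and with cytokines alone overlapped. Its LPS response was 1.59 ± 0.44 (adjusted p = 0.0097) on the log2 scale with cytokines and 11.06 ± 0.71 (adjusted p = 2.3e-08) without, so the interaction was -9.47 ± 0.79 (adjusted p = 2.2e-06). Values after ± are approximate standard errors for log2 values, namely the size of the log2 value divided by the square root of its F statistic. At genes with few counts in a group they may understate the error.

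The same order of group means held at other genes of the antiviral programme. Oasl1, a member of the oligoadenylate synthetase-like family, had 191, 131 and 262 CPM in the libraries with LPS + cytokines, 109, 60.8 and 46.9 CPM with cytokines alone, 975, 1007 and 894 CPM with LPS alone and 0.679, 0.0858 and 0.252 CPM in medium. The interaction of Oasl1 was -9.98 ± 0.59 (adjusted p = 2e-08). Ifit1, whose product binds viral RNA that lacks the host cap methylation, had 243, 182 and 369.8 CPM in the libraries with LPS + cytokines, 107, 65.1 and 66.5 CPM with cytokines alone, 607, 918 and 692 CPM with LPS alone and 1.698, 1.29 and 1.43 CPM in medium. The interaction of Ifit1 was -7.22 ± 0.41 (adjusted p = 3e-09). In both genes the lowest library with cytokines alone was far above the highest medium library. Its relatives Ifit2 and Ifit3 had interactions of -7.87 ± 0.62 (adjusted p = 8.6e-07) and -8.22 ± 0.74 (adjusted p = 4.4e-06), and Cmpk2, a mitochondrial nucleotide kinase next to Rsad2, had -7.85 ± 0.59 (adjusted p = 5.2e-07).

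The members of the list with the smallest p differed less between the groups with LPS. Oasl2 had 658, 559 and 714 CPM in the libraries with LPS + cytokines, 264, 283 and 237 CPM with cytokines alone, 624, 870.5 and 717 CPM with LPS alone and 3.99, 3.002 and 4.63 CPM in medium, so the groups with LPS overlapped while those without it were far apart. Its interaction of -6.27 ± 0.21 (adjusted p = 1.6e-14) had the smallest p of the list. Rtp4, a chaperone-like protein induced by interferon, had 249.6, 227 and 269.6 CPM in the libraries with LPS + cytokines, 133, 136 and 129 CPM with cytokines alone, 188, 232 and 214 CPM with LPS alone and 1.44, 0.943 and 0.925 CPM in medium. The interaction of Rtp4 was -6.66 ± 0.23 (adjusted p = 2.3e-14). Oas3, an enzyme that makes the oligoadenylate activator of RNase L, had 448, 432 and 555 CPM in the libraries with LPS + cytokines, 257, 232 and 208 CPM with cytokines alone, 886, 991 and 948 CPM with LPS alone and 15.5, 13.04 and 10.2 CPM in medium. The interaction of Oas3 was -5.14 ± 0.18 (adjusted p = 2.5e-14). Rtp4 also overlapped between the groups with LPS, whereas Oas3 did not, and in all 3 genes cytokines alone stood far above medium.

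Several genes of this group were almost undetected in medium, so their fitted folds and the values after ± depend on the prior count of the model. Ifi44 had 2 counts over the 3 medium libraries and 2663 with LPS alone, a ratio of 1770 with an exact 95% interval of 489 to 14621 for counting error only. Ms4a4c, of a family of membrane proteins in myeloid cells, had 3 counts in medium and 6302 with LPS alone (ratio 2792, interval 955 to 13543), and Ms4a6b had 3 and 732 (ratio 324, interval 111 to 1576). Ifi44 itself had 71.1, 52.8 and 68.6 CPM in the libraries with LPS + cytokines, 21.6, 24.8 and 11.5 CPM with cytokines alone, 98.5, 115 and 88.1 CPM with LPS alone and 0.0849, 0.0858 and 0 CPM in medium, and its interaction was -8.77 ± 0.55 (adjusted p = 2e-09). The interactions of Ms4a4c and Ms4a6b were -9.31 ± 1.10 (adjusted p = 5e-05) and -7.06 ± 0.65 (adjusted p = 4.8e-07). Even in these genes every library with cytokines alone was above every medium library.

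**Figure D2:**
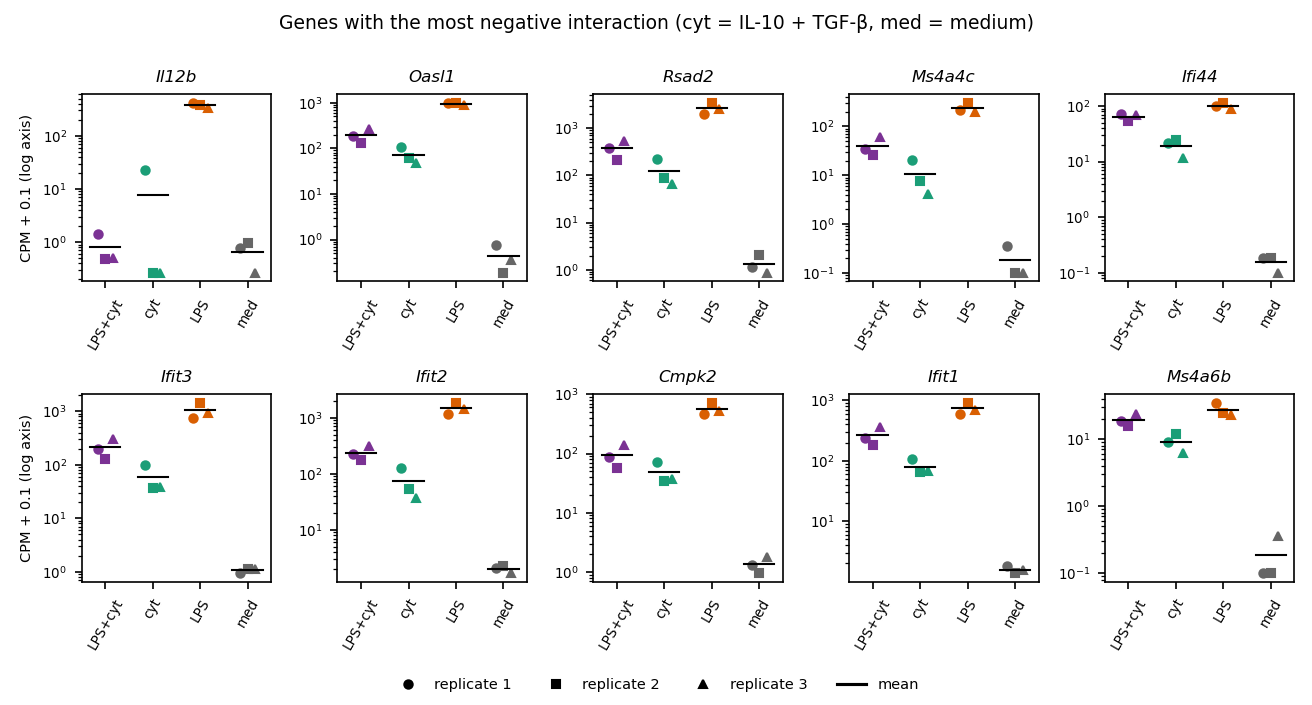
CPM plus 0.1 (log axis) in each of the 12 libraries for the 10 genes with the most negative interaction among called genes that averaged 2 or more in log2 CPM; symbols mark the replicate number and bars the group mean. Apart from Il12b, each gene is lowest in medium, intermediate with cytokines alone and with LPS + cytokines, and highest by group mean with LPS alone; in Ms4a6b the groups with LPS overlap.

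The interferon-inducible GTPases, which attack the vacuoles of intracellular pathogens, behaved in the same direction. All 15 genes listed from the guanylate-binding protein (GBP) and immunity-related GTPase (IRG) families were lower, against 12.1% of all genes, with a median interaction of -3.06. Their summed level was 556, 468 and 664 TPM with LPS + cytokines, 370.4, 267 and 251 TPM with cytokines alone, 1565, 1839 and 1588 TPM with LPS alone and 141, 127 and 104 TPM in medium. Gbp6 had 150.3, 115 and 157 CPM in the libraries with LPS + cytokines, 43.8, 37.7 and 24.7 CPM with cytokines alone, 269, 358 and 283 CPM with LPS alone and 5.18, 3.26 and 3.78 CPM in medium (interaction -4.22 ± 0.28 (adjusted p = 4.1e-09)). For Ifi47 and Igtp, both IRG proteins, the interactions were -3.06 ± 0.19 (adjusted p = 1.4e-10) and -2.18 ± 0.18 (adjusted p = 1.1e-08). Gbp6 and several other GTPases have close copies in the mouse genome, so reads may have been split between them and their values are uncertain. Without the pair of libraries that stood apart, 13 of the 15 were lower.

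Regulators of the interferon response were included in the comparison. Of 7 interferon regulatory factors tested, 3 (42.9%) were lower and none was higher, against 12.1% and 8.88% of all genes. Irf9, a DNA-binding factor of the type I interferon response, had 129, 125 and 128 CPM in the libraries with LPS + cytokines, 80.3, 83.1 and 74.8 CPM with cytokines alone, 136, 131 and 147 CPM with LPS alone and 26.8, 28.9 and 19.3 CPM in medium, and its interaction was -1.78 ± 0.16 (adjusted p = 2.8e-08). Irf8, a factor of myeloid and dendritic cell development, had an interaction of -1.68 ± 0.27 (adjusted p = 0.00024), and Irf1 one of -0.74 ± 0.16 (adjusted p = 0.0024). All 3 were smaller in size than the median of the antiviral list.

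The promoters of the genes with a lower interaction were searched for the interferon-stimulated response element (ISRE), a sequence bound by interferon regulatory factors, because these genes moved together. The letters used were GAAA, any 2 bases and GAAA, on either strand, within 250 bases before the RefSeq start, and 9505 of the 11876 tested genes had a promoter in the table. A match was present in 6.55% of 1466 promoters of genes with a lower interaction, 2.05% of 1121 promoters of genes with a higher one, 2.31% of promoters of genes not called and 2.98% of all 32851 promoters. Among listed type I interferon-stimulated genes 35.7% of 28 promoters held one, and among GTPases 81.8% of 11. Of the 11 promoters of the 10 genes with the most negative interaction 27.3% held a match. The letters of the GAS element (TTCNNNGAA, N for any base) and the CRE element (TGACGTCA) were searched in the same way. GAS was in 6.82% of promoters of lower genes, 4.64% of higher genes and 6.15% of genes not called. CRE was in 2.73%, 1.16% and 2.74% of them. Among promoters of listed type I interferon-stimulated genes 14.3% held GAS, and among those of GTPases 54.5%, against 6.09% for all tested genes. CRE was in 0% of both lists. A match is a description of the sequence only. The 160 bases before the start of Ifi47, of the GTPase list, held no match. Below are the 160 bases before the start of Rsad2 (chr12:26456453-26456612, minus strand), Ifit1 (chr19:34640729-34640888, plus strand) and Igtp (chr11:58199396-58199555, plus strand), examples from the antiviral and GTPase lists chosen because they hold a match. They are from RefSeq GRCm38.p6, 5′ to 3′, with ISRE letters in capitals.
Rsad2: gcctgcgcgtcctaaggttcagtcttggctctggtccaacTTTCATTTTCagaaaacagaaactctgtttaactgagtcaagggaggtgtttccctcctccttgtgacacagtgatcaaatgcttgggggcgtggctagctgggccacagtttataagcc
Ifit1: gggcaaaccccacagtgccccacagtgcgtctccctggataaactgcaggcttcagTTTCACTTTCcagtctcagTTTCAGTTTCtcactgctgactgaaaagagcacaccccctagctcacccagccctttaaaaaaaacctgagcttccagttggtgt
Igtp: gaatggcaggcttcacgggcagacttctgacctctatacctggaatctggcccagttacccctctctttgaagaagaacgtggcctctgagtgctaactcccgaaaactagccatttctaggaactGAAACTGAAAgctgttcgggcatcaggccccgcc

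Among secreted signals, the IL-12 family subunits, which direct T cell differentiation, were lower at all 5 tested members, against 12.1% of all genes, with a median interaction of -3.56. Il12b encodes the p40 subunit shared by IL-12 and IL-23 (chromosome 11, 44400063 to 44414677) and had 1.34, 0.385 and 0.402 CPM in the libraries with LPS + cytokines, 22.7, 0.169 and 0.164 CPM with cytokines alone, 419.9, 384 and 339 CPM with LPS alone and 0.679, 0.858 and 0.168 CPM in medium. Every LPS-alone library was far above all others, and the libraries with LPS + cytokines overlapped those in medium. The interaction of -12.67 ± 1.79 (adjusted p = 0.00026) was the most negative of the genes named here, but it rests in part on replicate 1 of cytokines alone. Without that library it was -7.31 (adjusted p = 0.0016), and with replicate 3 of medium also left out it was -6.88 (adjusted p = 6e-04).

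Its partner Il12a, the p35 subunit, had 2.06, 1.93 and 1.51 CPM in the libraries with LPS + cytokines, 1.65, 0.592 and 0.329 CPM with cytokines alone, 16.6, 28.1 and 21.1 CPM with LPS alone and 0.3397, 0.172 and 0 CPM in medium. Its interaction was -5.76 ± 0.81 (adjusted p = 3.6e-05). Il23a, the p19 subunit, had an interaction of -3.53 ± 0.86 (adjusted p = 0.0055). It was counted 3 times over the medium libraries and 106 times with LPS alone, a ratio of 47.0 with an interval of 15.6 to 231. Il27, a subunit of the cytokine IL-27, had an interaction of -3.56 ± 0.60 (adjusted p = 0.00017). All 3 remained below their LPS-alone libraries when cytokines were present.

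Of 13 proinflammatory cytokine genes tested, 11 (84.6%) were lower and none was higher, against 12.1% and 8.88% of all genes, with a median interaction of -2.77. LPS raised all 13 without cytokines, at a median of 2.85, and with cytokines it raised 3 and lowered 3, where the median was -0.03. Over all genes LPS raised 29.8% without cytokines, and raised 23.9% and lowered 23.1% with them. The 3 raised and 3 lowered with cytokines are near those shares. For Il6, a cytokine of acute inflammation (chromosome 5, 30013114 to 30019975), the values were 29.2, 26.8 and 18.4 CPM in the libraries with LPS + cytokines, 27.8, 24.9 and 18.7 CPM with cytokines alone, 125, 100.1 and 95.3 CPM with LPS alone and 7.81, 8.06 and 5.97 CPM in medium. LPS + cytokines and cytokines alone overlapped at a level above every medium library and below every LPS-alone library. The LPS response of Il6 was 0.06 ± 0.18 (adjusted p = 0.79) with cytokines and 3.87 ± 0.19 (adjusted p = 4e-12) without, and the interaction was -3.81 ± 0.26 (adjusted p = 2.1e-09).

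Tnf and Il1b differed from Il6 in that LPS lowered them in the cytokine-treated cells. Tnf, the early inflammatory cytokine, had 33.1, 23.6 and 30.2 CPM in the libraries with LPS + cytokines, 62.3, 63.1 and 57.2 CPM with cytokines alone, 87.7, 90.1 and 81.3 CPM with LPS alone and 46.3, 44.5 and 36.8 CPM in medium. Its response to LPS was -1.07 ± 0.16 (adjusted p = 2e-05) with cytokines and 1.02 ± 0.16 (adjusted p = 1.4e-05) without, with no overlap within either pair, and the interaction was -2.09 ± 0.22 (adjusted p = 9.7e-07). Il1b, the precursor of secreted IL-1β, had 1509, 1301 and 1361 CPM in the libraries with LPS + cytokines, 1957, 2269.7 and 1643 CPM with cytokines alone, 2344, 1857 and 1939 CPM with LPS alone and 451, 421 and 259 CPM in medium, so cytokines alone overlapped LPS alone. Its interaction was -2.93 ± 0.23 (adjusted p = 1.7e-08).

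Osm, which encodes oncostatin M of the IL-6 family, had 385, 425 and 327 CPM in the libraries with LPS + cytokines, 533, 615 and 514 CPM with cytokines alone, 360.4, 414 and 401 CPM with LPS alone and 57.7, 54.97 and 49.7 CPM in medium. Cytokines alone gave its highest levels, LPS alone and LPS + cytokines overlapped, and the interaction was -3.40 ± 0.15 (adjusted p = 8.2e-13). Inhba, the activin A subunit, had 1238, 1234 and 1109 CPM in the libraries with LPS + cytokines, 767, 1003 and 627 CPM with cytokines alone, 802, 826 and 798 CPM with LPS alone and 80.4, 78.5 and 54.8 CPM in medium. The interaction of Inhba was -2.93 ± 0.23 (adjusted p = 1.2e-08). There the highest levels were with LPS + cytokines, and the interaction is negative because cytokines alone, which overlapped LPS alone, stood far above medium. A negative interaction therefore did not always mean a lower final level.

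Il10 was counted only 4 times over the 3 libraries with LPS + cytokines, 11 times with cytokines alone, 55 times with LPS alone and 5 times in medium. Its interaction was -5.00 ± 1.25 (adjusted p = 0.0065), with LPS alone above the other groups. At this depth its folds are imprecise.

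The Il6 promoter is shown because it holds the letters searched for NF-kB (GGG, any 2 bases and TTTCC, on either strand), which were found in 2.46% of promoters of genes with a lower interaction, 1.07% of those with a higher one and 1.41% of all promoters in the table. Of 10 promoters of listed proinflammatory cytokines 1 held them. The 160 bases before the start of Il6 (chr5:30012954-30013113, plus strand, RefSeq GRCm38.p6) are given 5′ to 3′, with the match in capitals.
Il6: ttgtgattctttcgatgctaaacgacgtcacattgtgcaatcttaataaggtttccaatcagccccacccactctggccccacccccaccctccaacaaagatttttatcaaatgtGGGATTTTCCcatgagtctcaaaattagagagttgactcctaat

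Chemokines, which recruit leukocytes, were lower at 7 of 11 CC members (63.6%) and 7 of 10 CXC members (70.0%), against 12.1% of all genes, and none was higher. The median interactions were -2.94 for CC and -1.73 for CXC members. Without the pair of libraries that stood apart they were -1.42 with 6 CC members lower and -1.62 with 5 CXC members lower. LPS in the presence of cytokines lowered 7 of the CC members and raised 1, while without cytokines it raised 6 and lowered 2. The shares of all genes were 23.1% lowered and 23.9% raised with cytokines, and 29.8% raised and 28.9% lowered without. Ccl4, an attractant of monocytes and T cells, had 171, 133 and 151 CPM in the libraries with LPS + cytokines, 279.99, 321 and 240.4 CPM with cytokines alone, 366, 381 and 334 CPM with LPS alone and 106, 78.5 and 76.4 CPM in medium. Its LPS response was -0.88 ± 0.13 (adjusted p = 8.5e-06) with cytokines and 2.05 ± 0.13 (adjusted p = 3.3e-11) without (interaction -2.94 ± 0.18 (adjusted p = 1.3e-10)). Ccl3, a close relative of Ccl4, had an interaction of -2.13 ± 0.16 (adjusted p = 2.1e-09).

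Ccl7, an attractant of monocytes, had its lowest mean where LPS and cytokines were combined, in a range that overlapped medium. It had 2.598, 0.482 and 2.21 CPM in the libraries with LPS + cytokines, 26.3, 30.2 and 15.7 CPM with cytokines alone, 22.5, 6.77 and 10.04 CPM with LPS alone and 3.99, 2.06 and 5.13 CPM in medium, and the interaction was -5.56 ± 0.71 (adjusted p = 4.4e-05). Cxcl10, an interferon-induced ligand of CXCR3, followed the antiviral pattern with 81.6, 45.97 and 92.1 CPM in the libraries with LPS + cytokines, 44.2, 34.4 and 36.1 CPM with cytokines alone, 234, 380.1 and 208 CPM with LPS alone and 1.19, 1.11 and 1.85 CPM in medium (interaction -6.68 ± 0.50 (adjusted p = 3.5e-07)). Cxcl11, with the same receptor, had an interaction of -7.10 ± 1.23 (adjusted p = 0.00055) and a single count in medium against 807 with LPS alone, a ratio of 1073 with an interval of 192 to 42419. Cxcl2, a neutrophil attractant, had an interaction of -1.72 ± 0.31 (adjusted p = 0.00081).

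Ccl5 was not called. It had 850.1, 522 and 881 CPM in the libraries with LPS + cytokines, 501, 6.597 and 3.7 CPM with cytokines alone, 4965, 7203 and 5296 CPM with LPS alone and 70.3, 62.9 and 9.17 CPM in medium, and its interaction of -4.80 ± 1.83 (adjusted p = 0.086) turned to 0.25 without replicate 1 of cytokines alone and 0.74 without both libraries that stood apart. Without replicate 2 or 3 of cytokines alone it was -5.37 (adjusted p = 0.04 and 0.03). No direction can be given for it.

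Immediate early genes, transcription factors and regulators induced within the first hours of a stimulus, were lower at 15 of 19 members (78.9%, against 12.1% of all genes) and higher at none, with a median interaction of -1.76. LPS with cytokines lowered 11 of them and raised 4, while LPS alone raised 12 and lowered 3. Among all genes LPS with cytokines lowered 23.1% and raised 23.9%, so the 4 raised are near that share. LPS alone raised 29.8% of all genes and lowered 28.9%. Fos, a subunit of AP-1, had 374, 413 and 395 CPM in the libraries with LPS + cytokines, 427, 486 and 454 CPM with cytokines alone, 486, 605 and 457 CPM with LPS alone and 27.3, 13.6 and 25.6 CPM in medium. The 3 conditions with a stimulus lay within 374 to 605 CPM, all far above medium, and the interaction was -4.75 ± 0.29 (adjusted p = 2e-09). Nr4a2, an orphan nuclear receptor, had 1.43, 2.51 and 1.31 CPM in the libraries with LPS + cytokines, 7.76, 9.56 and 7.32 CPM with cytokines alone, 7.94, 10.2 and 7.502 CPM with LPS alone and 1.95, 1.29 and 0.505 CPM in medium, so its level fell with LPS in cytokine-treated cells and rose with LPS alone. Its interaction was -4.99 ± 0.42 (adjusted p = 1.8e-08). Btg2, an antiproliferative gene, had an interaction of -2.28 ± 0.17 (adjusted p = 2e-09).

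Feedback inhibitors of inflammatory signalling also had mainly negative interactions. Among MAP kinase phosphatases and RNA decay factors, 7 of 12 (58.3%, against 12.1% of all genes) were lower and none higher (median -1.06). Dusp1, which dephosphorylates p38 and JNK, had 663, 624 and 641 CPM in the libraries with LPS + cytokines, 358, 448 and 309.7 CPM with cytokines alone, 719, 1035 and 751 CPM with LPS alone and 72.01, 59.8 and 60.6 CPM in medium. The interaction of Dusp1 was -2.91 ± 0.21 (adjusted p = 3.7e-09). Zfp36, or tristetraprolin, which promotes decay of cytokine mRNAs, had 215, 211 and 194 CPM in the libraries with LPS + cytokines, 195, 199.9 and 169 CPM with cytokines alone, 339, 473 and 346 CPM with LPS alone and 64.4, 56.8 and 43.4 CPM in medium. The interaction of Zfp36 was -2.68 ± 0.19 (adjusted p = 2e-09). Dusp16 had an interaction of -1.27 ± 0.24 (adjusted p = 0.00096). NF-kB subunits and inhibitors were lower at 8 of 15 (53.3%) and higher at none (median -0.44), among them the IkB-related genes Nfkbiz at -2.58 ± 0.21 (adjusted p = 1.4e-08), Nfkbid at -1.84 ± 0.24 (adjusted p = 8.2e-06) and Nfkbib at -1.07 ± 0.14 (adjusted p = 1.2e-05). On log2(TPM + 1) values, and without the pair of libraries that stood apart, 5 of the 15 were lower.

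Genes named for IL-10 and STAT3 were lower at 11 of 20 (55.0%) and higher at 1 (5%), against 12.1% and 8.88% of all genes, with a median of -0.67. On log2(TPM + 1) values 9 were lower and 3 higher. Socs3, an inhibitor of gp130 cytokine signalling that STAT3 induces, had 759, 676 and 705 CPM in the libraries with LPS + cytokines, 385, 408 and 356 CPM with cytokines alone, 476, 777 and 552 CPM with LPS alone and 108, 108 and 74.02 CPM in medium. LPS raised it in both settings, by 0.90 ± 0.15 (adjusted p = 5.2e-05) with cytokines and 2.64 ± 0.16 (adjusted p = 2.5e-11) without, and LPS + cytokines reached levels that overlapped those of LPS alone. The interaction was -1.74 ± 0.21 (adjusted p = 4.1e-06). Il1rn, the IL-1 receptor antagonist, had 2622, 2094 and 2606 CPM in the libraries with LPS + cytokines, 2717, 3139.6 and 2687 CPM with cytokines alone, 2674, 3903 and 3359.8 CPM with LPS alone and 772, 739 and 765 CPM in medium, an interaction of -2.35 ± 0.18 (adjusted p = 5.4e-09) and no change with LPS that passed the test in cytokine-treated cells. Of 8 SOCS family genes 3 (37.5%) were lower and 1 (12.5%) higher: besides Socs3, Cish was lower at -1.14 ± 0.18 (adjusted p = 8e-05), and Socs6 was higher at 1.47 ± 0.16 (adjusted p = 8.9e-07).

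Genes listed as tolerogenic were lower at 13 of 21 (61.9%) and higher at 1 (4.76%), against 12.1% and 8.88% of all genes (median -0.93). With upper-quartile scaling 12 were lower and 3 higher. They include Cd200, a membrane ligand that restrains myeloid cells, with 21.1, 20.9 and 19.8 CPM in the libraries with LPS + cytokines, 4.75, 4.99 and 2.06 CPM with cytokines alone, 49.8, 57.3 and 55.6 CPM with LPS alone and 0.594, 0.772 and 0.589 CPM in medium. The interaction of Cd200 was -3.96 ± 0.42 (adjusted p = 8.9e-07). Lgals9, the galectin that binds TIM-3, had 458, 428 and 557 CPM in the libraries with LPS + cytokines, 369, 347 and 359 CPM with cytokines alone, 649, 856 and 731 CPM with LPS alone and 125, 128 and 139 CPM in medium. The interaction of Lgals9 was -2.09 ± 0.16 (adjusted p = 3.4e-09). For both genes LPS still raised the level in the presence of cytokines, by 2.40 ± 0.24 (adjusted p = 1.6e-07) for Cd200 and 0.42 ± 0.11 (adjusted p = 0.0037) for Lgals9.

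At the interface with T cells, costimulatory and inhibitory ligands were lower at 8 of 14 (57.1%) and higher at 1 (7.14%), against 12.1% and 8.88% of all genes, with a median of -1.19, or -0.74 without the pair of libraries that stood apart. Cd40, the receptor for T cell help, had 8.69, 6.07 and 7.94 CPM in the libraries with LPS + cytokines, 14.9, 1.18 and 1.73 CPM with cytokines alone, 183, 179.9 and 150.04 CPM with LPS alone and 5.604, 5.06 and 1.01 CPM in medium. Its interaction was -5.05 ± 0.96 (adjusted p = 0.0024), -3.09 (adjusted p = 0.0056) without replicate 1 of cytokines alone and -2.63 (adjusted p = 5.7e-06) without the pair of libraries that stood apart. Cd86, a ligand of CD28, had 38.7, 21.97 and 19.7 CPM in the libraries with LPS + cytokines, 56.2, 55.7 and 42.2 CPM with cytokines alone, 189.7, 126 and 163 CPM with LPS alone and 71.2, 50.3 and 13.7 CPM in medium. The interaction of Cd86 was -2.76 ± 0.61 (adjusted p = 0.0063), and -2.25 without those libraries. Cd80, the other CD28 ligand, had 8.96, 7.42 and 6.03 CPM in the libraries with LPS + cytokines, 11.2, 9.05 and 6.002 CPM with cytokines alone, 38.3, 27.7 and 32.2 CPM with LPS alone and 16.2, 10.9 and 6.48 CPM in medium. The interaction of Cd80 was -1.76 ± 0.39 (adjusted p = 0.0034). For all 3 genes every LPS-alone library was above every library of the other groups. In the list as a whole, 4 were lower with replicate 1 of cytokines alone left out, 5 without replicate 3 of LPS + cytokines or replicate 2 of LPS alone, and 6 with both libraries left out.

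Cd274, which encodes the inhibitory ligand PD-L1, had 771, 666 and 587 CPM in the libraries with LPS + cytokines, 199.6, 179.8 and 118 CPM with cytokines alone, 874, 1225 and 1021 CPM with LPS alone and 145, 149 and 99.3 CPM in medium. LPS raised it in both settings, by 2.03 ± 0.20 (adjusted p = 4.4e-07) with cytokines and 2.99 ± 0.21 (adjusted p = 2e-09) without. Its interaction of -0.96 ± 0.28 (adjusted p = 0.019) did not pass the test without replicate 1 of cytokines alone (-0.80, adjusted p = 0.056) or without both libraries (-0.64, adjusted p = 0.1), nor without replicate 3 of LPS + cytokines (adjusted p = 0.053) or replicate 2 of LPS alone (adjusted p = 0.064). Havcr2, which encodes TIM-3, had 30.4, 29.2 and 12.7 CPM in the libraries with LPS + cytokines, 25.5, 24.7 and 8.96 CPM with cytokines alone, 4.03, 1.63 and 1.88 CPM with LPS alone and 7.64, 5.57 and 3.36 CPM in medium, with an interaction of 1.42 ± 0.65 (adjusted p = 0.14) that did not pass the test; both of its groups with cytokines were above both groups without. With a term for replicate number its adjusted p was 0.019, and without replicate 3 of LPS + cytokines it was 0.048.

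MHC class I presentation genes were lower at 14 of 16 (87.5%, against 12.1% of all genes) and higher at none (median -0.97), and without the pair of libraries that stood apart 14 were still lower. Nlrc5, the transactivator of class I genes, had 38.3, 37.2 and 50.8 CPM in the libraries with LPS + cytokines, 30.5, 23.6 and 22.3 CPM with cytokines alone, 99.02, 109.7 and 88.3 CPM with LPS alone and 15.1, 14.4 and 9.42 CPM in medium. The interaction of Nlrc5 was -2.20 ± 0.24 (adjusted p = 1.2e-06). Tapbp, or tapasin, which loads peptide, had an interaction of -1.48 ± 0.14 (adjusted p = 9.6e-08), and the proteasome activator subunit Psme2 one of -1.33 ± 0.17 (adjusted p = 4.7e-06). LPS raised all 3 in both settings.

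Of 12 MHC class II genes tested, 2 were lower (16.7%, against 12.1% of all genes) and none was higher. The median of -0.04 changes sign with the scaling and with the libraries used. Without the pair of libraries that stood apart it was 0.34, with 1 gene higher and 0 lower. H2-Ab1, the class II beta chain, had 577, 478 and 451 CPM in the libraries with LPS + cytokines, 594, 507 and 458 CPM with cytokines alone, 1669, 1871 and 1576 CPM with LPS alone and 2273, 2080.5 and 888 CPM in medium. Both groups with cytokines lay below both groups without. With all libraries its LPS response was -0.05 ± 0.26 (adjusted p = 0.89) with cytokines and -0.03 ± 0.26 (adjusted p = 0.92) without. The interaction was -0.02 ± 0.36 (adjusted p = 0.99). The response without cytokines rests on replicate 3 of medium, since the other medium libraries lay above every LPS-alone library. Without replicate 3 of medium the interaction was 0.30 (adjusted p = 0.34), and without both libraries that stood apart 0.41 (adjusted p = 0.21). The lower members were the protease Ctss at -0.67 ± 0.20 (adjusted p = 0.019) and H2-Eb2 at -5.66 ± 1.91 (adjusted p = 0.041). H2-Eb2 had no count with LPS + cytokines and 1.54 to 1.63 CPM with LPS alone, and its fitted value depends on the prior count. Neither was called once both libraries were left out. Ctss also lost its call without replicate 2 of LPS + cytokines, of cytokines alone or of LPS alone (adjusted p from 0.055 to 0.067), and H2-Eb2 without any single library with LPS + cytokines, cytokines alone or LPS alone (adjusted p from 0.05 to 0.11).

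Genes of mature migratory dendritic cells were lower at 3 of 16 (18.8%, against 12.1% of all genes) and higher at none, and 2 to 5 were lower with each library left out in turn. Their median interaction was -2.05, and -0.15 without the pair of libraries that stood apart, so the size of the list's value depends on these libraries. Ccl22, a ligand of CCR4, had 15.5, 11.4 and 4.32 CPM in the libraries with LPS + cytokines, 292, 5.84 and 6.58 CPM with cytokines alone, 3697, 3522 and 3552 CPM with LPS alone and 827, 761 and 187 CPM in medium. The interaction of -5.87 ± 1.66 (adjusted p = 0.025) was -1.85 (adjusted p = 0.15) without replicate 1 of cytokines alone, -5.44 (adjusted p = 0.052) without replicate 3 of medium and -1.42 (adjusted p = 0.04) without both. It also missed the threshold without replicate 2 (adjusted p = 0.057) or 3 (adjusted p = 0.065) of LPS + cytokines, with the wild-type groups fitted alone (-5.86, adjusted p = 0.076), on log2(TPM + 1) values (-4.01, adjusted p = 0.094) and on log2(TPM + 0.1) values (-4.05, adjusted p = 0.11). Ccl17, the other CCR4 ligand, had 13.5, 14.9 and 8.75 CPM in the libraries with LPS + cytokines, 181, 23.6 and 38.6 CPM with cytokines alone, 1725, 2072 and 1770.4 CPM with LPS alone and 1503, 1299 and 691 CPM in medium; its interaction was -3.37 ± 0.87 (adjusted p = 0.015), -1.99 (adjusted p = 0.01) without replicate 1 of cytokines alone and -1.72 (adjusted p = 0.006) without both. Both chemokines were much lower with LPS + cytokines than with LPS alone.

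Marcksl1, a cytoskeletal protein gene, had an interaction of -2.16 (adjusted p = 7.7e-06) without both. It had 19.7, 17.5 and 21.5 CPM in the libraries with LPS + cytokines, 19.4, 25.1 and 22.4 CPM with cytokines alone, 75.3, 96.3 and 74.1 CPM with LPS alone and 18.1, 26.2 and 22.6 CPM in medium, and the interaction with all libraries was -2.07 ± 0.23 (adjusted p = 1.1e-06). Ccr7 itself, with the values given above, had an interaction of -2.81 ± 1.45 (adjusted p = 0.2), -0.05 without replicate 1 of cytokines alone and 0.48 without both. Every LPS-alone library was above 1000 CPM and every library with LPS + cytokines below 53 CPM. Its level with LPS was thus lower with cytokines, while the difference between its LPS responses with and without cytokines cannot be given a direction.

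**Figure D3:**
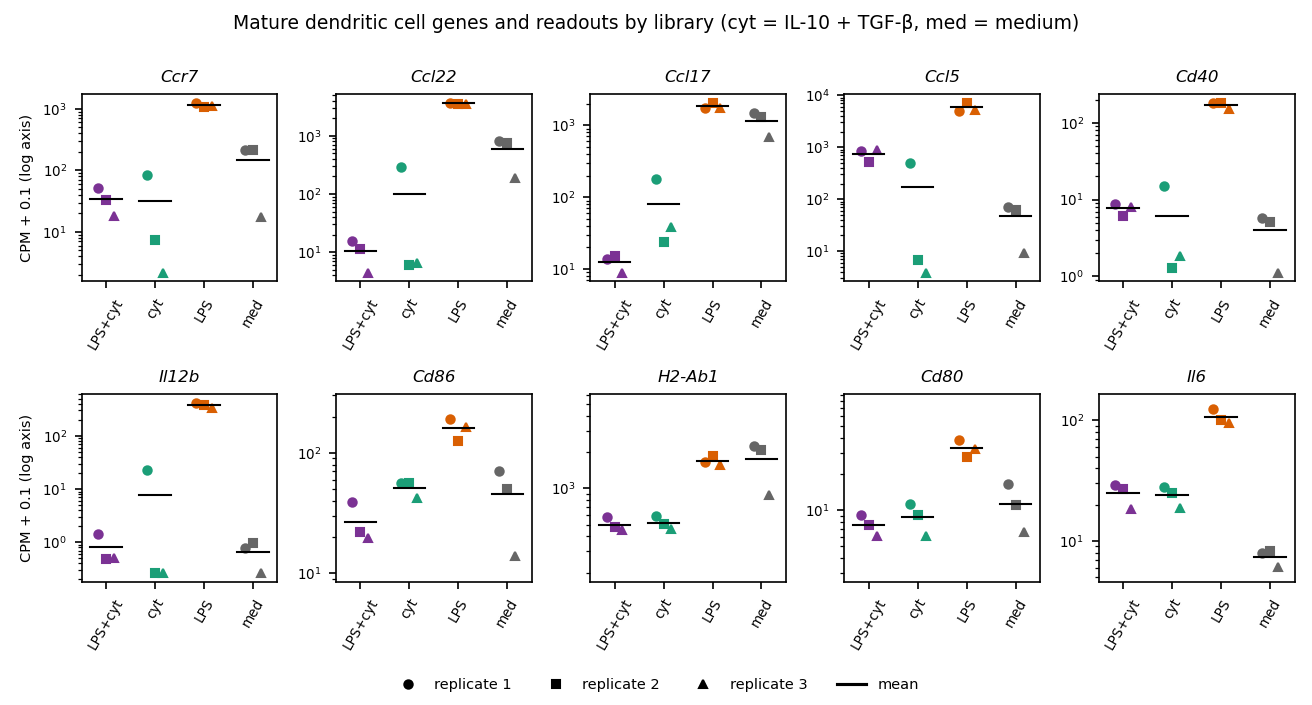
CPM plus 0.1 (log axis) in each library for genes of mature dendritic cells and T cell readouts; symbols mark the replicate number and bars the group mean. Replicate 1 of cytokines alone is high in Ccr7, Ccl22, Ccl17, Ccl5, Cd40 and Il12b, and replicate 3 of medium is low in Ccr7, Ccl22, Ccl5, Cd40, Cd86 and H2-Ab1.

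Effector enzymes were affected unequally. Nos2, inducible nitric oxide synthase, had 701, 642 and 579 CPM in the libraries with LPS + cytokines, 231, 223 and 135 CPM with cytokines alone, 855, 1230.4 and 1071 CPM with LPS alone and 32.4, 32.7 and 21.1 CPM in medium. LPS raised it by 1.71 ± 0.22 (adjusted p = 1e-05) with cytokines and 5.19 ± 0.26 (adjusted p = 5.5e-11) without, and the interaction was -3.49 ± 0.32 (adjusted p = 5.9e-07). Irg1, which makes the metabolite itaconate, had 1069, 813 and 1159.8 CPM in the libraries with LPS + cytokines, 549, 391 and 287 CPM with cytokines alone, 3191, 3074 and 2813 CPM with LPS alone and 189, 167 and 183 CPM in medium. The interaction of Irg1 was -2.76 ± 0.26 (adjusted p = 2.6e-07). Arg1, the arginase that competes with Nos2 for arginine, had 7357, 6542 and 7293 CPM in the libraries with LPS + cytokines, 5626, 6642 and 4671 CPM with cytokines alone, 3074, 2679 and 3529.7 CPM with LPS alone and 3115, 4082 and 2909 CPM in medium, higher in both groups with cytokines. Its interaction of 0.45 ± 0.19 (adjusted p = 0.11) did not pass the test, though it did with upper-quartile scaling (0.55, adjusted p = 0.047), on log2(TPM + 1) values (0.56, adjusted p = 0.039) and without replicate 2 of cytokines alone (0.59, adjusted p = 0.034). Of 11 genes of arginine, tryptophan and itaconate metabolism 4 (36.4%, against 12.1% of all genes) were lower and none higher, among them the kynureninase gene Kynu at -1.08 ± 0.29 (adjusted p = 0.011).

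Among 13 genes of prostaglandin and leukotriene synthesis 5 (38.5%) were higher and 3 (23.1%) lower, against 8.88% and 12.1% of all genes, and the cyclooxygenases moved in opposite directions. Ptgs2, the inducible enzyme, had 149, 98.8 and 98.4 CPM in the libraries with LPS + cytokines, 74.4, 41.1 and 23.1 CPM with cytokines alone, 789, 424 and 526 CPM with LPS alone and 3.31, 1.801 and 1.18 CPM in medium. The interaction of Ptgs2 was -6.78 ± 0.71 (adjusted p = 1.8e-05). Ptgs1, the constitutive enzyme, had 94.7, 87.5 and 99.02 CPM in the libraries with LPS + cytokines, 170.4, 164 and 177 CPM with cytokines alone, 39.2, 24.7 and 48.8 CPM with LPS alone and 186, 187 and 185 CPM in medium. The interaction of Ptgs1 was 1.44 ± 0.24 (adjusted p = 0.00023). LPS lowered Ptgs1 in both settings and most with LPS alone. Alox5ap, the partner protein of 5-lipoxygenase, was higher at 0.80 ± 0.13 (adjusted p = 0.00011). Without replicate 1 of cytokines alone, and without both libraries that stood apart, 3 of the list were higher, and 1 to 4 were lower with each library left out in turn.

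Of the 10 genes with the most positive interaction at an average of 2 or more in log2 CPM, 9 fell with LPS alone. Lifr, the receptor for leukaemia inhibitory factor (chromosome 15, 7090610 to 7197489), had 14.6, 19.3 and 12.2 CPM in the libraries with LPS + cytokines, 11.9, 12.7 and 11.9 CPM with cytokines alone, 2.01, 2.92 and 1.21 CPM with LPS alone and 17.4, 17.3 and 16.5 CPM in medium. LPS alone stood apart from the other 3 groups, the interaction was 3.39 ± 0.29 (adjusted p = 2e-08), and the LPS response with cytokines was 0.33 ± 0.18 (adjusted p = 0.13). Cd24a, a small surface glycoprotein, had 471, 477 and 437 CPM in the libraries with LPS + cytokines, 487, 489 and 582 CPM with cytokines alone, 58.6, 48.8 and 70.5 CPM with LPS alone and 348, 334 and 338 CPM in medium, again with LPS alone apart from the rest, and an interaction of 2.35 ± 0.29 (adjusted p = 2.1e-05). Cd244, a receptor of the SLAM family, had 65.04, 64.3 and 53.3 CPM in the libraries with LPS + cytokines, 57.7, 69.4 and 55.99 CPM with cytokines alone, 18.6, 8.17 and 15.6 CPM with LPS alone and 91.6, 93.7 and 63.6 CPM in medium. The interaction of Cd244 was 2.55 ± 0.28 (adjusted p = 3e-06).

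Angptl4, an inhibitor of lipoprotein lipase and a target of PPAR factors, had 37, 39.7 and 36.7 CPM in the libraries with LPS + cytokines, 45.9, 38.99 and 44.4 CPM with cytokines alone, 1.34, 0.467 and 0.772 CPM with LPS alone and 6.79, 8.23 and 10.4 CPM in medium. Both groups with cytokines stood above both without, LPS lowered it in the absence of cytokines, and its response in their presence was -0.19 ± 0.15 (adjusted p = 0.33), giving an interaction of 3.09 ± 0.32 (adjusted p = 3.3e-07). Id3, an inhibitor of basic helix-loop-helix factors that responds to BMP and TGF-β signals, had 29.5, 26.02 and 27.04 CPM in the libraries with LPS + cytokines, 15.7, 16.2 and 16.4 CPM with cytokines alone, 1.902, 3.5 and 3.09 CPM with LPS alone and 9.09, 11.8 and 8.66 CPM in medium. LPS raised it with cytokines, by 0.77 ± 0.26 (adjusted p = 0.021), and lowered it without, with a response of -1.80 ± 0.34 (adjusted p = 0.00016). The interaction was 2.57 ± 0.43 (adjusted p = 0.00025).

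Aldh1l2, a mitochondrial enzyme of folate metabolism, was the exception among the 10. It had 11.7, 16.96 and 15.98 CPM in the libraries with LPS + cytokines, 1.07, 2.62 and 2.302 CPM with cytokines alone, 2.57, 3.62 and 3.42 CPM with LPS alone and 3.23, 3.002 and 1.598 CPM in medium. The libraries with LPS + cytokines stood above all others, the response to LPS alone was 0.30 ± 0.33 (adjusted p = 0.45), and the interaction was 2.58 ± 0.44 (adjusted p = 0.00022). Matk, a kinase that phosphorylates Src family members, had an interaction of 2.75 ± 0.40 (adjusted p = 3.8e-05), and Klrb1b, a lectin-like receptor, one of 2.72 ± 0.39 (adjusted p = 3.9e-05). Cdca7, a Myc target of cycling cells, had 2.69 ± 0.44 (adjusted p = 0.00012), and F13a1, the coagulation factor XIII A chain, had 2.51 ± 0.60 (adjusted p = 0.0099). All 4 had their lowest group mean with LPS alone.

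**Figure D4:**
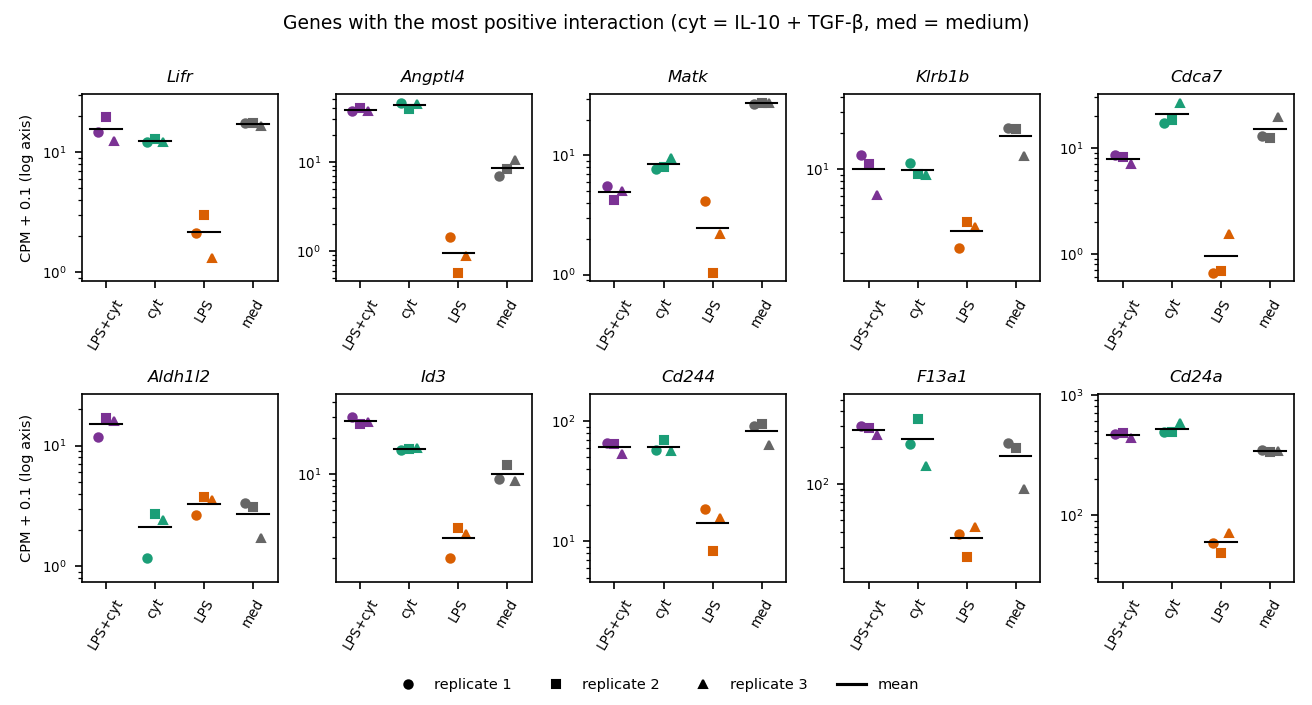
CPM plus 0.1 (log axis) in each library for the 10 genes with the most positive interaction among called genes that averaged 2 or more in log2 CPM; symbols mark the replicate number and bars the group mean. In 9 of the 10 the mean is lowest with LPS alone, and Aldh1l2 is instead highest with LPS + cytokines, at 11.7 to 17.0 CPM.

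Macrophage markers split in both directions, 6 higher (40.0%) and 4 lower (26.7%) of 15, against 8.88% and 12.1% of all genes, and 5 higher and 3 lower without the pair of libraries that stood apart. Csf1r, the receptor for macrophage colony-stimulating factor, had 1979, 1865 and 1914 CPM in the libraries with LPS + cytokines, 1113, 1297 and 1063 CPM with cytokines alone, 758, 665 and 736 CPM with LPS alone and 963, 874 and 1037 CPM in medium. LPS raised it with cytokines and lowered it without, and the interaction was 1.14 ± 0.14 (adjusted p = 2.6e-06). Siglec1, a sialic acid receptor that interferon induces, had 229.8, 209 and 249 CPM in the libraries with LPS + cytokines, 172, 203 and 137 CPM with cytokines alone, 103, 115 and 89.3 CPM with LPS alone and 3.65, 4.46 and 7.82 CPM in medium. The interaction of Siglec1 was -3.84 ± 0.35 (adjusted p = 7.5e-07), and Emr1, which encodes F4/80, had one of -1.36 ± 0.17 (adjusted p = 5.1e-06). C1qa, a chain of complement C1q, had 38.9, 31.5 and 30.8 CPM in the libraries with LPS + cytokines, 82.3, 75.6 and 61.3 CPM with cytokines alone, 5.26, 7 and 4.303 CPM with LPS alone and 52.99, 34.7 and 33.8 CPM in medium and was higher at 1.76 ± 0.30 (adjusted p = 0.00033). Summed over the 15 macrophage markers, the level was 2630 to 3094 TPM with LPS + cytokines, 2507 to 2993 TPM with cytokines alone, 2168 to 2442 TPM with LPS alone and 1907 to 2255 TPM in medium.

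C-type lectin receptors, which bind microbial sugars, were higher at 6 (40.0%) and lower at 4 (26.7%) of 15, against 8.88% and 12.1% of all genes. Mrc1, the mannose receptor, had 44.97, 43.1 and 49.8 CPM in the libraries with LPS + cytokines, 86.5, 79.6 and 80.2 CPM with cytokines alone, 23.05, 23.1 and 22.5 CPM with LPS alone and 147, 167 and 189 CPM in medium. LPS lowered it in both settings, least with cytokines, and the interaction was 2.04 ± 0.33 (adjusted p = 0.00033). Clec4a2, an inhibitory receptor, was higher at 1.52 ± 0.16 (adjusted p = 4e-07), and Clec7a, the beta-glucan receptor Dectin-1, was lower at -1.23 ± 0.22 (adjusted p = 0.00033). Among 21 Toll-like receptors and adaptors 3 (14.3%) were higher and 5 (23.8%) lower. The receptors Tlr1 and Tlr3 were lower at -3.12 ± 0.33 (adjusted p = 5.2e-07) and -2.41 ± 0.33 (adjusted p = 1.5e-05), and the LPS co-receptor Cd14 at -1.25 ± 0.21 (adjusted p = 0.00018). The number of lower genes in that list was 3 without replicate 2 of LPS + cytokines, replicate 1 of cytokines alone, replicate 3 of LPS alone or replicate 1 of medium. The number of higher genes was 1 to 3 with each library left out in turn, moving by over 1.5 times in 9 of 12 fits, and 0 without the pair of libraries that stood apart.

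Glycolysis and HIF target genes were the metabolic list with the most positive calls, 13 higher (50%) and 5 lower (19.2%) of 26, against 8.88% and 12.1% of all genes, with a median of 0.44. LPS raised 21 of the 26 genes in cytokine-treated cells and lowered none, while LPS alone raised 8 and lowered 2. Over all genes LPS raised 23.9% and lowered 23.1% with cytokines, and LPS alone raised 29.8% and lowered 28.9%. The number that LPS alone raised is thus near the share of all genes. Pgk1, phosphoglycerate kinase, had 2266, 2149.8 and 2354 CPM in the libraries with LPS + cytokines, 1423, 1569 and 1298 CPM with cytokines alone, 1905, 1738 and 2041 CPM with LPS alone and 1972, 2123 and 1771 CPM in medium. LPS raised it with cytokines by 0.66 ± 0.09 (adjusted p = 9.4e-06), whereas its response to LPS alone was -0.05 ± 0.09 (adjusted p = 0.7), and the interaction was 0.70 ± 0.13 (adjusted p = 0.00059). Bnip3, a hypoxia-induced mitochondrial protein, had 1016, 1022 and 933 CPM in the libraries with LPS + cytokines, 530.2, 593 and 399 CPM with cytokines alone, 696, 419.5 and 633 CPM with LPS alone and 755, 792 and 580.1 CPM in medium. The interaction of Bnip3 was 1.25 ± 0.22 (adjusted p = 0.00044). Hk3, a hexokinase of myeloid cells, went the other way at -1.15 ± 0.15 (adjusted p = 6.6e-06). Without the pair of libraries that stood apart 11 were higher and 2 lower. With each library left out in turn 9 to 14 were higher, and the number lower was 2 or 3 in 8 of the 12 fits. The summed level of the list with LPS alone was 37373.2, 27090.5 and 35612.8 TPM, lowest in replicate 2.

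Of 33 genes of the TCA cycle and respiratory chain 4 (12.1%) were higher and 1 (3.03%) lower, against 8.88% and 12.1% of all genes, a share of higher genes near that background. With upper-quartile scaling and on TPM values 7 were higher and 0 lower, and without the pair of libraries that stood apart 1 was higher and 1 lower. Of 22 cholesterol synthesis and uptake genes 3 (13.6%) were higher and 2 (9.09%) lower, also near the background. With upper-quartile scaling, on TPM values and without that pair 4 were higher and 0 lower, and with each library left out in turn 1 to 5 were higher and 0 to 2 lower. Sqle, the squalene epoxidase gene, was higher at 0.51 ± 0.16 (adjusted p = 0.03). It lost the call in 7 of the 12 fits that left out 1 library, with adjusted p up to 0.091, and in the TCA list from 1 to 4 genes were higher in those fits. LPS lowered all 20 Myc and ribosome biogenesis genes in both settings, against 23.1% of all genes with cytokines and 28.9% without. The interaction was called at 2 (10% higher, against 8.88% of all genes), Pes1 at 0.56 ± 0.14 (adjusted p = 0.0075) and Npm1 at 0.42 ± 0.13 (adjusted p = 0.023). Npm1 lost the call in 5 of the 12 fits that left out 1 library, with adjusted p up to 0.069, and the list had 4 higher genes with upper-quartile scaling and 1 without the pair of libraries that stood apart.

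Cell cycle genes fell with LPS in both settings, at 29 of 31 with cytokines (median -1.99) and 26 of 31 without (median -1.38). LPS lowered 23.1% of all genes with cytokines and 28.9% without. The interaction was lower at 6 (19.4%) and higher at 1 (3.23%), against 12.1% and 8.88% of all genes, with 3 lower on log2(TPM + 1) values and 9 lower without the pair of libraries that stood apart. Ccne1, the cyclin of S phase entry, had 7.97, 6.94 and 6.13 CPM in the libraries with LPS + cytokines, 28.7, 25.96 and 35.4 CPM with cytokines alone, 24.6, 24.03 and 22.3 CPM with LPS alone and 35.5, 35.8 and 41.6 CPM in medium. The interaction of Ccne1 was -1.42 ± 0.20 (adjusted p = 2.3e-05). Ccnd1, a D-type cyclin, and Mcm6, a subunit of the replicative helicase, were lower at -1.47 ± 0.25 (adjusted p = 0.00017) and -0.84 ± 0.22 (adjusted p = 0.0097). Endoplasmic reticulum folding genes were lower at 11 of 20 (55.0%) and higher at 1 (5%), though 5 were lower on log2(TPM + 1) values, without replicate 2 of LPS + cytokines and without replicate 2 of medium, and 7 without replicate 1 or 3 of cytokines alone. Hspa5, the chaperone BiP, had 597, 537 and 616 CPM in the libraries with LPS + cytokines, 810.5, 755 and 895 CPM with cytokines alone, 721, 935 and 786 CPM with LPS alone and 601, 499 and 652 CPM in medium. The interaction of Hspa5 was -0.97 ± 0.20 (adjusted p = 0.0016), and LPS lowered it with cytokines and raised it without. The folding factors Creld2 and Dnajb11 were lower at -1.16 ± 0.19 (adjusted p = 0.00016) and -0.90 ± 0.18 (adjusted p = 0.00079).

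Targets and feedback genes of TGF-β were called at 6 of 24, 4 lower (16.7%) and 2 higher (8.33%), near the 12.1% and 8.88% of all genes, with a median of -0.16 that became 0.03 on log2(TPM + 1) values. Without the pair of libraries that stood apart 2 were lower and 2 higher, and with upper-quartile scaling 4 were lower and 4 higher. Skil, which encodes the SMAD repressor SnoN, was lower at -1.01 ± 0.17 (adjusted p = 0.00014), and Thbs1, thrombospondin-1, which can activate latent TGF-β, at -1.45 ± 0.25 (adjusted p = 0.00035). Smad7, the inhibitory SMAD, had 9.77, 8.77 and 7.24 CPM in the libraries with LPS + cytokines, 3.98, 6.34 and 5.18 CPM with cytokines alone, 3.24, 5.13 and 3.64 CPM with LPS alone and 2.63, 1.72 and 1.68 CPM in medium. LPS raised it in both settings and its interaction of -0.26 ± 0.37 (adjusted p = 0.68) did not pass the test, so no dependence on the cytokines was detected at this spread.

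Cell type marker lists differed in their calls. None of 12 dendritic cell markers passed the test, against 20.9% of all genes, with Irf4 at -0.42 ± 0.22 (adjusted p = 0.2) and Ccr7 the closest. The median interaction of these markers was -0.37, and 0.22 without both libraries that stood apart. Neutrophil and granulocyte markers were lower at 3 of 15 (20.0%, against 12.1% of all genes), Camp at -2.72 ± 0.81 (adjusted p = 0.031), Lcn2 at -1.88 ± 0.59 (adjusted p = 0.038) and Ngp at -2.53 ± 0.81 (adjusted p = 0.044), and at none once both libraries that stood apart were left out. Camp lost the call in 6, Lcn2 in 9 and Ngp in 9 of the 12 fits that left out 1 library, with adjusted p up to 0.094, 0.09 and 0.12. Monocyte markers were lower at 5 (62.5%) and higher at 2 (25%) of 8, against 12.1% and 8.88% of all genes. Without the pair of libraries that stood apart 4 were lower and 1 higher, and with each library left out in turn 0 to 2 were higher, a move of over 1.5 times in 10 of 12 fits. The lower members included Ly6c2 at -1.79 ± 0.15 (adjusted p = 1.6e-08), Ly6c1 at -1.90 ± 0.20 and Nr4a1 at -3.65 ± 0.37. Unlike Ly6c1 and Ly6c2, the listed markers Ccr2 and Fn1 had lower means with LPS in both settings. With LPS + cytokines, cytokines alone, LPS alone and medium, Ccr2 averaged 54.5, 214.9, 43.9 and 305.7 TPM. Fn1 averaged 100.2, 286.0, 57.6 and 312.7 TPM in the same order. Ly6c1 and Ly6c2 are near-identical copies and their values are uncertain. Of mast cell and basophil markers 1 of 8 was lower (12.5%, against 12.1% of all genes), the histidine decarboxylase gene Hdc at -4.39 ± 0.51 (adjusted p = 1.6e-05).

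**Figure D5:**
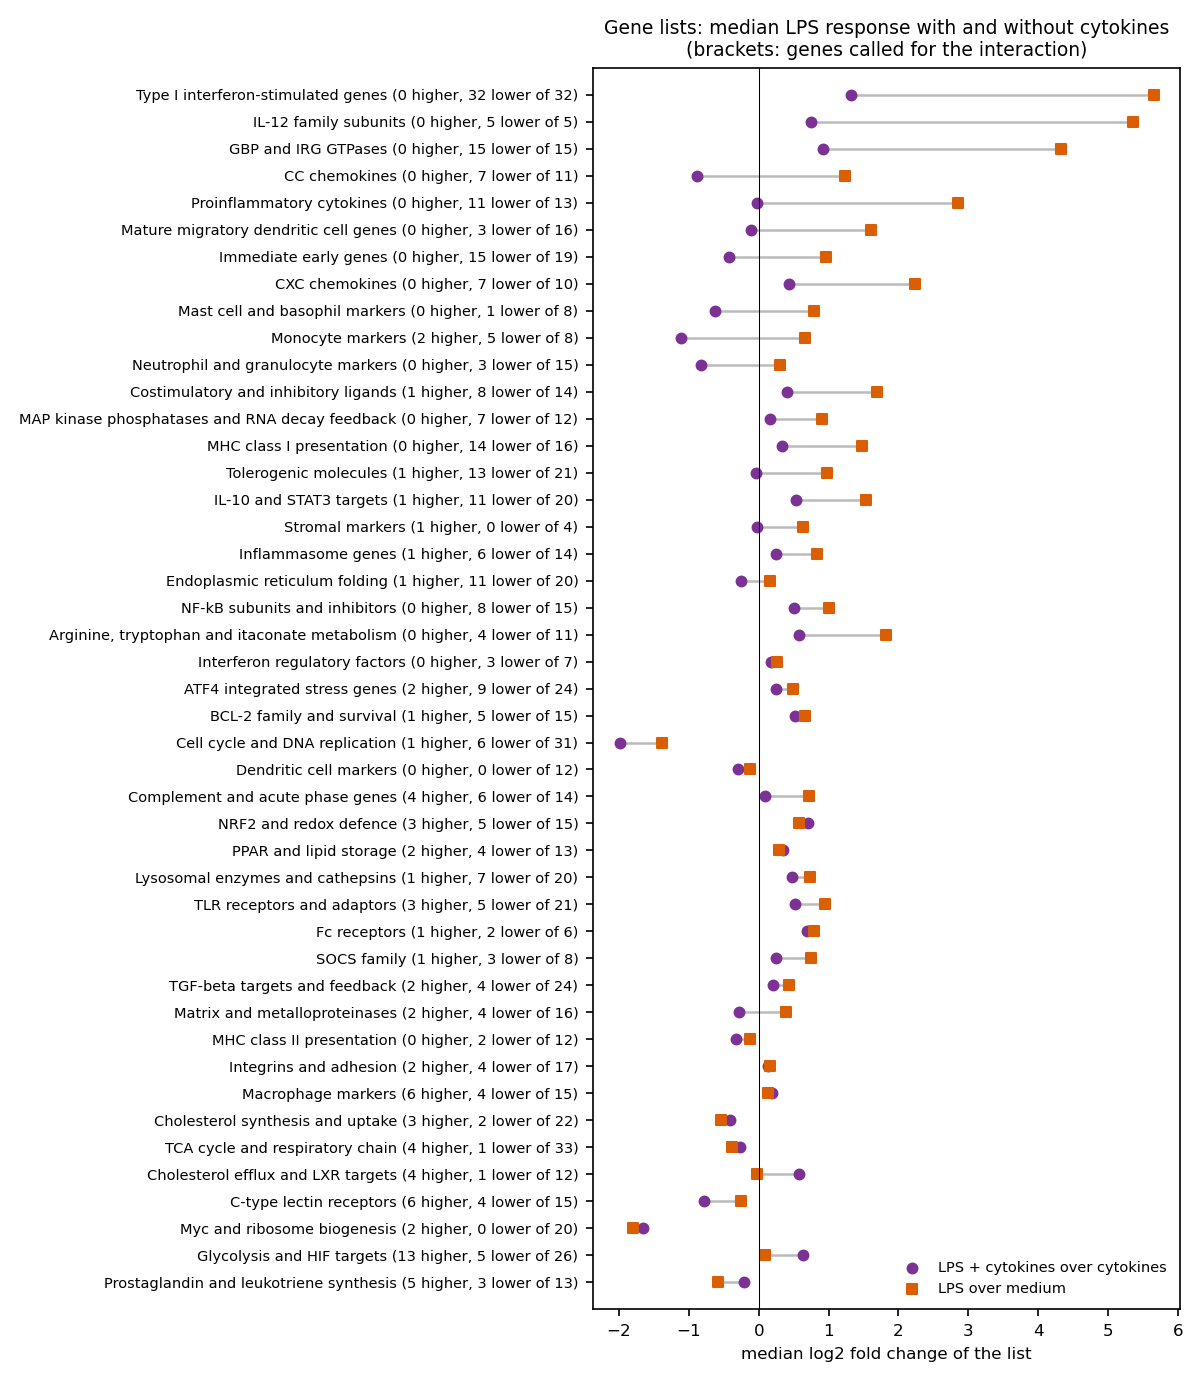
Median log2 LPS response of 45 gene lists with at least 4 tested members, with cytokines (circles) and without (squares), ordered by the median interaction; brackets give the genes called higher and lower for the interaction. The widest gaps are in type I interferon-stimulated genes (1.32 and 5.65), IL-12 family subunits (0.75 and 5.36) and the GTPases (0.92 and 4.33), and the glycolysis list lies to the right with cytokines (0.63 and 0.09). The medians of interaction of the dendritic cell, integrin, MHC class II, PPAR and TGF-β lists change sign with the scaling or the libraries used.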

How the data were processed

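The expected counts and TPM were deposited by the authors as RSEM gene-level output on mm10 after bcl2fastq, per the submitters' processing notes, which give no versions; no source states whether strand was kept, so antisense and overlapping genes cannot be separated. Each library gave 8056831 to 12068759 expected counts over 23420 genes. Rn45s, a ribosomal RNA precursor, held 4.48% to 8.88% of the counts of the 12 wild-type libraries.

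Expected counts were rounded. All 18 libraries in 6 groups were fitted without covariates in edgeR 4.0.16 under R 4.3.3 (TMM scaling, filterByExpr, robust quasi-likelihood F-test). The filter, the scaling and the estimate of spread are thus shared with the Bat3 knockout groups (LPS and medium). The p-values were Benjamini-Hochberg adjusted over 11876 genes at 0.05. CPM use TMM-scaled sizes; TPM served as an alternative scale (limma 3.58.1, pseudocounts 1 and 0.1). DESeq2 1.42.0 and other scalings, filters, a replicate block and left-out libraries were tried. The fitting scripts were tested on simulated data.

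Named genes are, with a few others of the same lists chosen after their values were seen, the 10 most negative and 10 most positive called interactions with mean log2 CPM of at least 2, 20 readout genes, and up to 3 called members with the smallest p of each list described (2 where none was called), leaving out unnamed gene models. A few genes that this rule names are not reported here. The comparison, the 48 lists and the rule were chosen with earlier results of these data known. Lists are described by counts, with the share of all genes called, and by medians; the median interaction of all genes is 0.00. Within every group, libraries were more unlike than sampling alone gives (chi-square over its degrees of freedom, 5.3 to 22.8). The highest values, 22.8 and 20.5, were for replicate 2 of LPS alone against the others of its group. Next were 19.8 and 18.9 for replicate 3 of medium, while cytokines alone had 10.6 to 13.7. Counting intervals cover counting error only.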

Additional observations from a re-analysis of the deposited data

How the results depend on the processing

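The counts of genes called for the interaction were within 1.5 times of 2487 under every alternative run: 2465 with RLE scaling, 2632 with upper-quartile scaling, 2602 with DESeq2, 2548 without a count filter, 2400 with at least 5 CPM in 3 libraries, 2494 with the wild-type groups fitted alone, 2610 on log2(TPM + 1), 2354 on log2(TPM + 0.1) and 1982 to 2493 with each library left out in turn, lowest without replicate 1 of cytokines alone. The share of calls that were higher was 42.4% in the reported fit, 55.7% with upper-quartile scaling, and 56.1% and 54.9% on log2(TPM + 1) and log2(TPM + 0.1). The genes raised by LPS alone numbered 2357 on log2(TPM + 1) and 2321 on log2(TPM + 0.1), against 3537; the cause was not tested. Leaving out each library in turn gave 813 to 1073 higher and 1169 to 1420 lower genes for the interaction, 4572 to 5718 genes for LPS with cytokines and 6296 to 6965 for LPS alone.

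With the replicate number as a block, 2560 genes were called, 1083 higher and 1477 lower. The correlations of deviations between same-numbered libraries were 0.17, -0.02 and 0.09 for LPS + cytokines with cytokines alone, 0.11, 0.18 and -0.20 for LPS alone with medium, 0.35, 0.21 and 0.44 for cytokines alone with medium, and 0.25, 0.11 and 0.21 for LPS + cytokines with medium, and -0.11 to 0.07 for LPS alone with either cytokine group. The numbers thus went together in some of the group pairs and not in others, and were not taken to pair the libraries. In the first and the second of these, 4 and 2 of 6 libraries correlated best with their own number. The block brought Havcr2 past the threshold and took H2-Eb2 (adjusted p = 0.052) and Ngp (adjusted p = 0.062) out, and called 5 in place of 3 migratory dendritic cell genes.

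Directions turned at genes that had not passed the test. Ccl5 was from -5.37 to 0.25 with each library left out, 0.25 without replicate 1 of cytokines alone, and 0.74 without both libraries that stood apart, and Ccr7 was 0.48 without both. H2-Ab1 was 0.09 with upper-quartile scaling, 0.01 with the wild-type groups alone, 0.41 without both libraries and from -0.25 to 0.30 with each library left out. Smad7 was 0.04 on log2(TPM + 1). Without a count filter Ccl5 (-4.80, adjusted p = 1.1e-158) and Ccr7 (-2.81, adjusted p = 3.2e-54) passed the threshold, as did Havcr2 (adjusted p = 4.7e-05) and Arg1 (adjusted p = 0.045). The adjusted p of Ccl5 and Ccr7 were 0.086 and 0.2 in the reported fit, at the same log2 values. Their libraries differ widely within groups, so the p-values of the fit without a filter were not relied on. The cause was not tested. Over 152 named genes and 22 alternatives, 3192 of 3333 values kept direction and side of the threshold. Genes with few counts in medium have imprecise folds at this depth.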
